A study of Mus musculus with 10 samples.

Results

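The genes described here are 10 Z-disc and stretch-response genes of the mouse heart, Ankrd1, Ankrd2, Ankrd23, Xirp1, Xirp2, Fhl1, Fhl2, Csrp3, Tcap and Flnc, taken by name from a deposited table of 24888 genes. They were followed in hearts with cardiac overexpression of SPOP, brought about with αMHC-Cre, a recombinase expressed from the alpha-myosin heavy chain promoter (SPOP_CKI, 5 libraries), and in hearts of mice with the Cre transgene and no SPOP overexpression (Cre_control, 5 libraries, titled WT with the genotype Myh6Cre). All mice were labelled male, aged 8 to 10 weeks and in sham condition, so both groups carried Cre and neither had a pressure load. That promoter is active in cardiomyocytes, whereas RNA was taken from whole heart tissue. SPOP is the substrate adaptor of a cullin ubiquitin ligase, and the series title sets the comparison in pathological hypertrophy and heart failure.

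The Z-disc anchors the thin filaments and titin at the ends of each sarcomere and is a site where cardiomyocytes sense stretch. Several of its proteins also travel to the nucleus or bind transcription factors, and a subset of their genes is known to be induced when the heart is overloaded or stretched. The 10 genes fall into the muscle ankyrin repeat proteins, which bind titin (Ankrd1, Ankrd2, Ankrd23), the actin-binding Xin repeat proteins of the intercalated disc and Z-disc (Xirp1, Xirp2), LIM-domain adaptors (Fhl1, Fhl2, Csrp3), telethonin, which caps the end of titin in the Z-disc (Tcap), and the actin crosslinker filamin C (Flnc).

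Values are scaled reads, that is, reads per gene divided by the authors' size factor for the library. Depth was 15316293 to 17114869 reads per library. Spop itself stood at 25308 to 40631 scaled reads in SPOP_CKI and 3078 to 3726 in Cre_control, as the labels imply. Some libraries stood apart. In SPOP_CKI 3, reads were found for 13167 genes, against 18531 to 20806 in the other 9 libraries. SPOP_CKI 1, SPOP_CKI 3 and Cre_control 5 held 6491, 6578 and 4491 scaled reads of Xist, which is transcribed from the inactive X of female cells, and the other libraries at most 5.31, although all were labelled male. Each tested gene of the set is therefore given also without SPOP_CKI 2, without SPOP_CKI 3 and without the 3 libraries with Xist reads. Nothing in the labels says more than that the hearts are numbered repeats. Xist differed within each group, so the libraries of a group were not all repeats of 1 animal. Whether each library comes from a separate mouse is not stated. The p-values cover only the spread among these libraries, part of which may be technical. In bulk tissue, fewer cells of a type and less RNA per cell cannot be told apart.

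Upstream sequence is shown for 3 genes that were higher in SPOP_CKI hearts and for Fhl2, which did not pass the test, because the factors that read mechanical signals in muscle bind short motifs there. Each is the 250 bases before a RefSeq transcription start (build GRCm38.p6), 5′ to 3′ on the gene's strand. Capitals mark the MCAT element bound by TEAD factors (CATTCC, or GGAATG on the other strand), the CArG box bound by serum response factor and the MEF2 site. The Ankrd1 window is chr19:36119845-36120094 on the minus strand, that of Xirp2 chr2:67445752-67446001 on the plus strand, that of Fhl1 chrX:56779433-56779682 on the plus strand, which lies inside the gene at an internal start, and that of Fhl2 chr1:43196762-43197011 on the minus strand.
Ankrd1: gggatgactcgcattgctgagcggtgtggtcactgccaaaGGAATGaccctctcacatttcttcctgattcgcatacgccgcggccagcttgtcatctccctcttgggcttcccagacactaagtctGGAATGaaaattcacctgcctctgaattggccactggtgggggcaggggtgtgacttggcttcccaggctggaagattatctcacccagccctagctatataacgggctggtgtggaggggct
Xirp2: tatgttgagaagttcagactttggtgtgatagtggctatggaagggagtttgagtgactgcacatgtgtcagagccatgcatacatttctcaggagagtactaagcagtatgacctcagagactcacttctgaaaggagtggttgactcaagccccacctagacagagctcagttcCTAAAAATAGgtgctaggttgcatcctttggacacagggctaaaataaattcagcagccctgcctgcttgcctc
Fhl1: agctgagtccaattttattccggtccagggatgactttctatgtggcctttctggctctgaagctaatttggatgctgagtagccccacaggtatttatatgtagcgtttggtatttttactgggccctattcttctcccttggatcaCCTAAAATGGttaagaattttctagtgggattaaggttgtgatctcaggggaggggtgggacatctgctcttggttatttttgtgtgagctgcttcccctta
Fhl2: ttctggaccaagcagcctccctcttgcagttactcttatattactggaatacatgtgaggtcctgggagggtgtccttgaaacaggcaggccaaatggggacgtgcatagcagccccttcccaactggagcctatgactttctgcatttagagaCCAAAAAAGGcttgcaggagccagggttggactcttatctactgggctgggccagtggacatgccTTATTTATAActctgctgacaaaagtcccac
Ankrd1 held 2 MCAT elements, at -210 to -205 and at -123 to -118 from the start. Xirp2 held a MEF2 site at -74 to -65 and Fhl1 a CArG box at -102 to -93. In Fhl2 a CArG box lay at -96 to -87 and a MEF2 site at -31 to -22. Both strands were searched and no sites of different motifs overlapped. Among 32851 RefSeq windows of the same length, 12.6% held an MCAT element, 1.47% a CArG box and 2.92% a MEF2 site. Of the 10 genes, 8 had windows, 13 in all, of which 3 held an MCAT element (Ankrd1, Ankrd23 and Flnc), 3 a CArG box (Fhl1 and both windows of Fhl2) and 2 a MEF2 site (Xirp2 and Fhl2). The windows of Csrp3 and Ankrd2 held none of the motifs. Tcap and Xirp1 had no window and were not searched. The windows of Flnc overlap each other, so the 13 are not all separate sequence.

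Ankrd1, Fhl1 and Xirp2 were 3.61-fold, 4.79-fold and 5.21-fold higher in SPOP_CKI hearts, and Tcap was 7.11-fold lower. Flnc, Ankrd23, Xirp1, Csrp3 and Fhl2 did not pass the test, and Ankrd2 was too low to test. Of the 9 tested genes, 3 were called higher and 1 lower (limma, Benjamini-Hochberg adjusted p under 0.05 over 14212 genes), where 10.0% of all genes tested were called higher and 12.3% lower. The groups did not overlap for 3 of the 9, against 21.3% of all genes tested. The median log2 difference of the 9 was 0.69, and that of all genes tested -0.11. Each of the 9 had at least 42.9 scaled reads in every library, so none was tested because of 1 group alone.

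**Figure D1:**
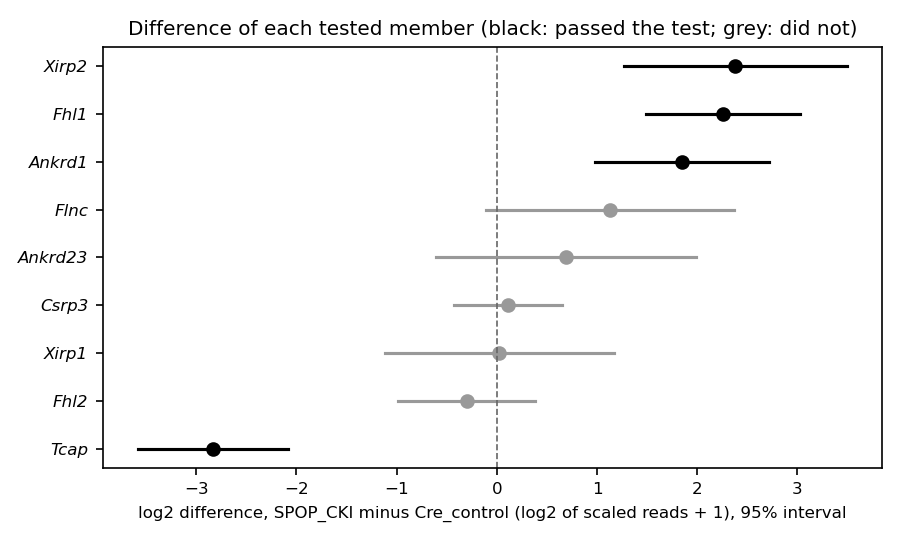
Log2 difference of each of the 9 tested genes, SPOP_CKI minus Cre_control, with its 95% interval from limma (5 libraries per group); black genes passed the test and grey ones did not. Xirp2, Fhl1 and Ankrd1 lie right of 0 and Tcap left of it at -2.83, while the grey intervals cross 0.

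Ankrd1 encodes the cardiac ankyrin repeat protein, which binds titin in the sarcomere and acts as a transcriptional cofactor in the nucleus. It lies at mm10 chr19:36111965-36119844, minus strand (ENSMUSG00000024803). Ankrd1 had 85856, 165495, 45466, 104238 and 46731 scaled reads in SPOP_CKI hearts 1 to 5, against 27754, 12122, 20094, 20598 and 36979 in Cre_control hearts 1 to 5. Every SPOP_CKI heart lay above every Cre_control heart, with hearts 3 and 5 nearest to the highest control. The log2 difference was 1.85 (SE 0.40, limma adjusted p = 0.00833). It was 1.59 without SPOP_CKI 2 (adjusted p = 0.0136) and 2.05 without SPOP_CKI 3 (adjusted p = 0.00213). Leaving out the 3 libraries with Xist reads gave 2.27 (adjusted p = 0.00437).

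Its relatives were far lower. Ankrd23, the diabetes-related ankyrin repeat protein (chr1:36530188-36536883, minus strand), had 269, 573, 42.9, 438 and 124 scaled reads in SPOP_CKI hearts, against 151, 134, 90.7, 123 and 145 in Cre_control hearts. Hearts 1, 2 and 4 of SPOP_CKI lay above all controls and heart 3 below all of them. The log2 difference was 0.69 (95% interval -0.60 to 1.99, adjusted p = 0.411). It was 0.32 without SPOP_CKI 2 (adjusted p = 0.691), 1.25 without SPOP_CKI 3 (adjusted p = 0.0242) and 1.35 without the 3 libraries with Xist reads (adjusted p = 0.0507). Of the 2697 exon bases of Ankrd23, 2109 are shared with Gm42417 on the same strand, so the assignment of reads to it is uncertain. Ankrd2, which is best known from skeletal muscle (chr19:42036038-42045110, plus strand), had 1.81, 81.0, 0, 2.61 and 0 scaled reads in SPOP_CKI hearts and 5.31, 1.07, 0, 6.73 and 6.43 in Cre_control hearts. Only SPOP_CKI 2 stood clear of the rest, and Ankrd2 did not reach 10 scaled reads in 5 libraries.

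**Figure D2:**
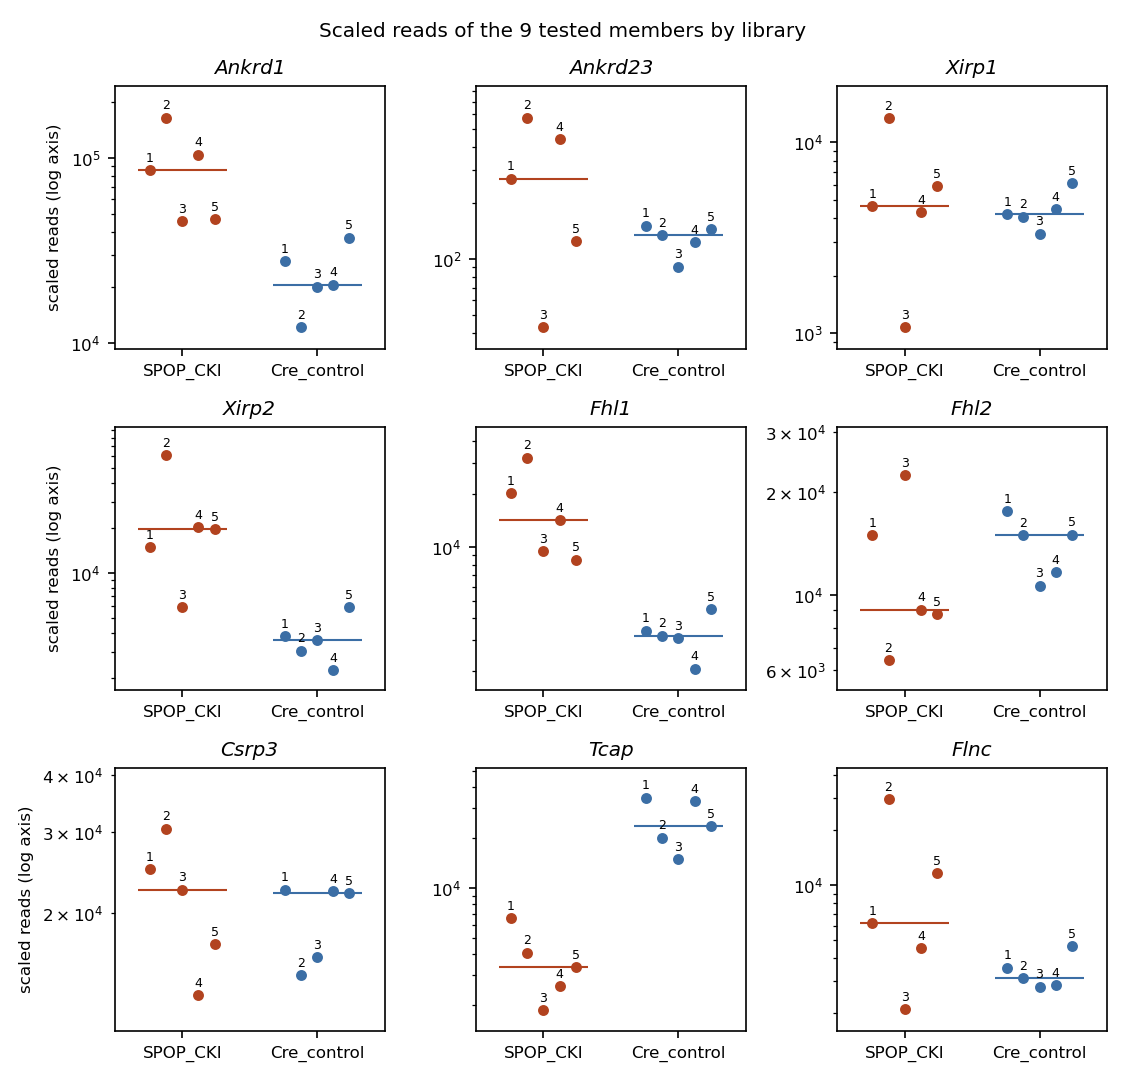
Scaled reads (log axes, a different range in each panel) of the 9 tested genes in SPOP_CKI hearts and Cre_control hearts; points are libraries with their replicate number and lines are group medians. For Ankrd1, Fhl1 and Tcap no point of one group reaches the other, and heart 2 of SPOP_CKI is the highest of its group in 7 of the 9 panels.

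The Xin genes encode actin-binding repeat proteins found at the intercalated disc, where cardiomyocytes are joined. Xirp2 (ENSMUSG00000027022, chr2:67446002-67526614, plus strand) had 14859, 61413, 5921, 20217 and 19656 scaled reads in SPOP_CKI hearts, against 3791, 3049, 3594, 2256 and 5938 in Cre_control hearts. In 4 of 5 SPOP_CKI hearts it lay above all controls, and heart 3 fell just below Cre_control 5. The log2 difference was 2.38 (SE 0.51, limma adjusted p = 0.0083). It was 1.95 without SPOP_CKI 2 (adjusted p = 0.00836) and 2.79 without SPOP_CKI 3 (adjusted p = 0.000586). It was 3.22 without the 3 libraries with Xist reads (adjusted p = 0.000753). An antisense gene, Gm13601, shares 168 of its 11979 exon bases, and held 36.3 scaled reads in SPOP_CKI 2, 5.23 in SPOP_CKI 4 and 0 in the rest.

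Xirp1, the other Xin gene (chr9:120013755-120023598, minus strand), had 4611, 13404, 1073, 4319 and 5885 scaled reads in SPOP_CKI hearts, against 4183, 4081, 3323, 4450 and 6107 in Cre_control hearts. Heart 2 lay above all controls, heart 3 below all of them, and the other 3 among them. The log2 difference was 0.03 (95% interval -1.11 to 1.17, adjusted p = 0.977). It was -0.37 without SPOP_CKI 2 (adjusted p = 0.546), 0.54 without SPOP_CKI 3 (adjusted p = 0.196) and 0.81 without the 3 libraries with Xist reads (adjusted p = 0.0925), so that its sign and size moved with the hearts included. Per kilobase of gene length, Xirp2 made up 61.1, 69.1, 72.9, 69.5 and 61.9% of the reads of both Xin genes in SPOP_CKI hearts, against 30.6, 26.7, 34.5, 19.8 and 32.2% in Cre_control hearts. The means were 66.9% ± 5.14 in SPOP_CKI and 28.8% ± 5.76 in Cre_control (SD, n = 5 each). These shares were not corrected for GC content. Centring each library by the GC content of its genes brought the 2 log2 differences closer, to 2.07 for Xirp2 and 0.57 for Xirp1. Hearts 2 and 3 of SPOP_CKI, which held the highest and lowest levels of both genes, had similar shares.

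Fhl1 encodes a four-and-a-half LIM domain protein that binds titin in the I-band and takes part in hypertrophic signalling. It lies on the X chromosome at chrX:56731787-56793346, plus strand (ENSMUSG00000023092). Fhl1 had 20346, 32194, 9543, 14215 and 8523 scaled reads in SPOP_CKI hearts, against 3370, 3161, 3052, 2055 and 4483 in Cre_control hearts. All SPOP_CKI hearts lay above all controls. The log2 difference was 2.26 (SE 0.35, limma adjusted p = 0.00186). It was 1.98 without SPOP_CKI 2 (adjusted p = 0.00224), 2.42 without SPOP_CKI 3 (adjusted p = 0.00054) and 2.46 without the 3 libraries with Xist reads (adjusted p = 0.00239).

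Fhl2, a cardiac relative that also binds titin and represses some hypertrophic signals (chr1:43123074-43196984, minus strand), had 14991, 6432, 22480, 9054 and 8789 scaled reads in SPOP_CKI hearts, against 17582, 14991, 10635, 11674 and 15033 in Cre_control hearts. Hearts 2, 4 and 5 of SPOP_CKI lay below all controls and heart 3 above them. Its log2 difference was -0.30 (95% interval -0.99 to 0.38, adjusted p = 0.504). That difference was -0.10 without SPOP_CKI 2 (adjusted p = 0.81), -0.56 without SPOP_CKI 3 (adjusted p = 0.104) and -0.75 without the 3 libraries with Xist reads (adjusted p = 0.0382). Per kilobase, Fhl1 made up 40.9, 71.9, 17.8, 44.5 and 33.1% of the reads of Fhl1 and Fhl2 in SPOP_CKI hearts, against 8.92, 9.72, 12.8, 8.25 and 13.2% in Cre_control hearts. The shares did not overlap, but spread far more among SPOP_CKI hearts (41.7% ± 19.8) than among Cre_control hearts (10.6% ± 2.28; SD, n = 5 each).

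**Figure D3:**
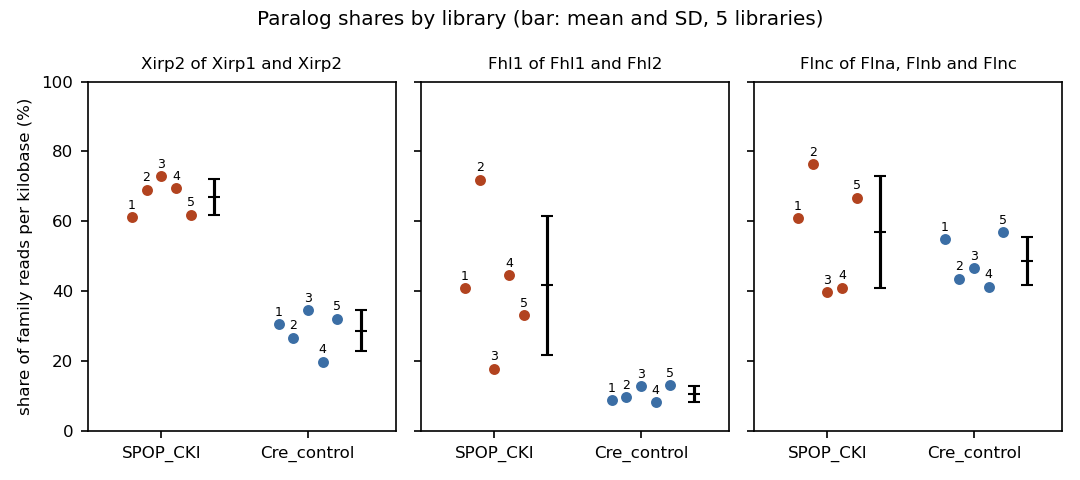
Share of a gene in its family's reads per kilobase of gene length, in percent, in SPOP_CKI and Cre_control libraries (points, with replicate numbers), with mean and SD beside them. The Xirp2 share is 61.1 to 72.9% in SPOP_CKI and 19.8 to 34.5% in Cre_control; the Flnc shares of the groups overlap.

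Csrp3 encodes muscle LIM protein, a Z-disc adaptor whose loss causes dilated cardiomyopathy in mice (chr7:48830398-48848033, minus strand). Csrp3 had 24918, 30567, 22493, 13259 and 17118 scaled reads in SPOP_CKI hearts, against 22497, 14644, 16030, 22295 and 22066 in Cre_control hearts. The groups overlapped over most of their range, and the log2 difference was 0.12 (95% interval -0.42 to 0.66, adjusted p = 0.757). It stood at -0.023 without SPOP_CKI 2, at 0.088 without SPOP_CKI 3 and at 0.042 without the 3 libraries with Xist reads, with adjusted p of 0.951, 0.82 and 0.93. Its log2 values had the smallest SD of the 9 tested genes within SPOP_CKI, 0.47, against 0.30 in Cre_control.

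Tcap encodes telethonin, a small protein that joins the ends of titin molecules in the Z-disc. It is a short gene at chr11:98383811-98384953, plus strand (ENSMUSG00000007877). Tcap had 6622, 4096, 1855, 2585 and 3357 scaled reads in SPOP_CKI hearts, against 34621, 19944, 14892, 33005 and 23469 in Cre_control hearts. Each SPOP_CKI heart lay below each Cre_control heart. Tcap differed by -2.83 on the log2 scale (SE 0.34, limma adjusted p = 0.000545). It was -2.90 without SPOP_CKI 2 (adjusted p = 0.00126), -2.62 without SPOP_CKI 3 (adjusted p = 0.000152) and -2.88 without the 3 libraries with Xist reads (adjusted p = 0.000514). Centring each library by the GC content of its genes gave -1.98 (adjusted p = 0.000963).

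Flnc encodes filamin C, the muscle filamin, which crosslinks actin at the Z-disc and the membrane (chr6:29433256-29461883, plus strand). Flnc had 6212, 29582, 2091, 4525 and 11667 scaled reads in SPOP_CKI hearts, against 3540, 3095, 2788, 2841 and 4647 in Cre_control hearts. Hearts 1, 2 and 5 of SPOP_CKI lay above all controls, heart 4 within their range and heart 3 below them. The log2 difference was 1.13 (95% interval -0.11 to 2.37, limma adjusted p = 0.169). Without SPOP_CKI 2, its highest library, it was 0.62 (adjusted p = 0.286), and without SPOP_CKI 3 it was 1.58 (adjusted p = 0.0241). It was 1.93 without the 3 libraries with Xist reads (adjusted p = 0.0197). The authors' deposited table lists Flnc at a log2 fold change of 1.68 with an adjusted p-value of 0.00932. On reads recovered from the table, the adjusted p was 0.0457 with DESeq2 and 0.0502 with edgeR. Per kilobase, Flnc made up 57.0% ± 16.1 of filamin reads in SPOP_CKI hearts and 48.6% ± 6.92 in Cre_control hearts (SD, n = 5 each), and these shares overlapped.

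The SPOP_CKI hearts differed widely among themselves. SPOP_CKI 2 had the highest value of its group for 7 of the 9 tested genes, whereas it was highest for 22.6% of all genes tested. SPOP_CKI 3 had the lowest value for 6 of the 9, against 41.8% of all genes tested. Fhl2 ran the other way, highest in SPOP_CKI 3 and lowest in SPOP_CKI 2. In Cre_control, library 1 was highest for 4 of the 9 and library 5 for 5, against 14.0% and 20.8% of all genes tested. Cre_control 3 was lowest for 5 of the 9, against 21.2%. The highest SPOP_CKI value was 14.1 times the lowest for Flnc, 13.4 times for Ankrd23, 12.5 times for Xirp1 and 10.4 times for Xirp2, against 1.67, 1.66, 1.84 and 2.63 times in Cre_control. Ankrd1, Fhl1, Fhl2, Csrp3 and Tcap had ratios of 2.31 to 3.78 in SPOP_CKI and of 1.54 to 3.05 in Cre_control. For Ankrd1 the ratios were close, at 3.64 in SPOP_CKI and 3.05 in Cre_control. A wider spread in SPOP_CKI was also seen across all genes tested, whose median SD on the log2 scale was 0.55 in SPOP_CKI and 0.26 in Cre_control.

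**Figure D4:**
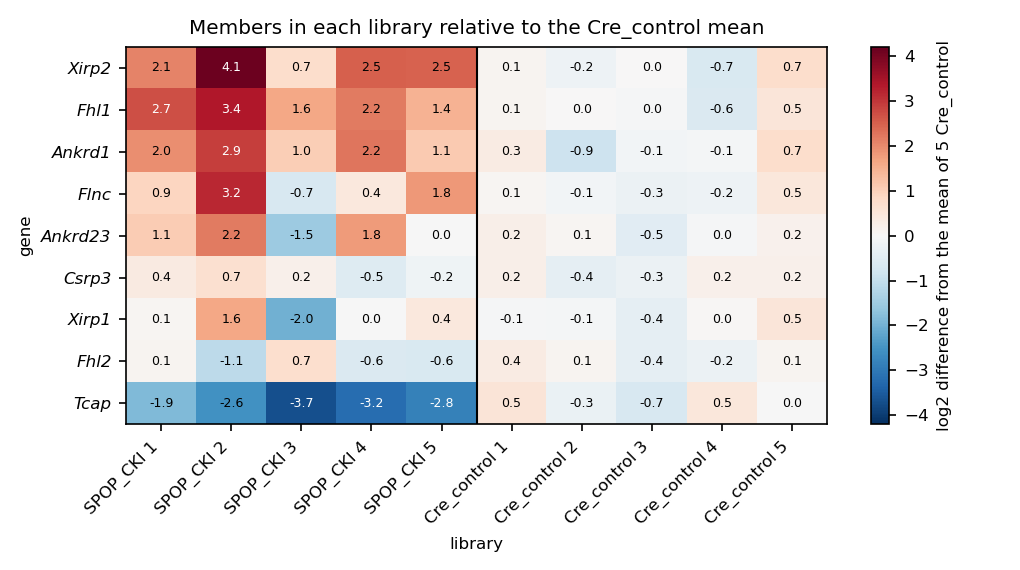
Log2 difference of each tested gene in each library from the mean of the 5 Cre_control libraries (rows are genes, columns libraries, SPOP_CKI left of the line). SPOP_CKI 2 reaches 4.1 for Xirp2, SPOP_CKI 3 stands at -2.0 for Xirp1 and -3.7 for Tcap, and the Tcap row is below 0 in every SPOP_CKI library.

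Levels per kilobase of gene length placed the 10 genes in a different order in the groups. In SPOP_CKI hearts Ankrd1 came first, at 50741 ± 28006 scaled reads per kilobase, followed by Csrp3 (8113 ± 2524), Fhl2 (6510 ± 3418), Fhl1 (4568 ± 2615) and Tcap (3906 ± 1935), and these last 4 did not differ from their neighbours beyond the spread. In Cre_control hearts Tcap came first, at 26568 ± 8928 scaled reads per kilobase, then Ankrd1 at 13320 ± 5294, with Fhl2 (7371 ± 1482) and Csrp3 (7303 ± 1438) level with each other (SD, n = 5 each). Fhl1, at 868 ± 233, and Xirp1, at 758 ± 176, were also level in Cre_control. Xirp2, Flnc and Xirp1 stood between 1003 and 2038 scaled reads per kilobase in SPOP_CKI, and Flnc and Xirp2 at 360 and 311 in Cre_control. Ankrd23 and Ankrd2 were ninth and last in both groups. Ankrd1 made up 99.8% of the reads per kilobase of the 3 ankyrin repeat genes in SPOP_CKI and 99.6% in Cre_control.

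Profiles over the 10 libraries were compared with those of 9845 protein-coding genes, as the root mean square of the differences between log2 values centred on each gene's mean. The genes nearest to Ankrd1 were Enah (0.37), which encodes an actin regulator, Tgfb2 (0.38), which encodes a growth factor, and Calhm5 (0.39). Enah averaged 6194 ± 2354 scaled reads in SPOP_CKI and 1776 ± 355 in Cre_control. Among the tested genes of the set, Fhl1 was nearest to Ankrd1 at 0.44, ahead of Xirp2 at 0.60. Nearest to Tcap were Isoc2a (0.38), Prodh (0.40), which encodes proline dehydrogenase, and Hdac11 (0.43), which encodes a histone deacetylase. Prodh averaged 64.2 ± 27.4 scaled reads in SPOP_CKI and 377 ± 69.5 in Cre_control (SD, n = 5 each). Part of this likeness is the group difference itself, and the profiles share their libraries.

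Of 26 other Z-disc genes tested, 0 were called higher and 3 lower, where 10.0% and 12.3% of all genes tested were, so the number lower is near that background. Their median log2 difference was -0.13. An unadjusted limma p under 0.05 was found for 7 of the 26, against 5261 of the 14212 genes tested. With DESeq2 2 of them were called higher and with edgeR 1. Myot, which encodes myotilin, averaged 224 ± 102 scaled reads in SPOP_CKI and 512 ± 134 in Cre_control (log2 difference -1.29, SE 0.33, limma adjusted p = 0.0179). The formin gene Fhod3 averaged 2681 ± 1137 in SPOP_CKI and 4700 ± 669 in Cre_control (log2 difference -0.92), a call lost without SPOP_CKI 2, without SPOP_CKI 4 and without any single Cre_control library, and with edgeR. The call for Fhod3 was also lost with GC centring. Actn2 and Ttn did not pass. Actn2, which encodes alpha-actinin, averaged 24273 ± 9354 in SPOP_CKI and 30911 ± 5698 in Cre_control, and Ttn 24669 ± 10162 in SPOP_CKI and 25762 ± 5071 in Cre_control.

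Of 7 filamin, FHL and CSRP relatives, 6 were tested, 1 was called higher and 0 lower, beside the same background shares of 10.0% and 12.3%, with a median log2 difference of 0.13. Flna, the non-muscle filamin, averaged 4369 ± 1725 scaled reads in SPOP_CKI and 2378 ± 318 in Cre_control (log2 difference 0.80, SE 0.25, limma adjusted p = 0.0421). That call was lost when any of SPOP_CKI 2, 4 or 5 or any Cre_control library was left out. Csrp2, the LIM protein of smooth muscle, averaged 287 ± 155 in SPOP_CKI and 195 ± 61.4 in Cre_control (adjusted p = 0.498).

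Of 17 listed factors that sense stretch or carry it to the nucleus, 16 were tested, 1 was called higher and 1 lower, with a median log2 difference of 0.02. These counts are close to the 10.0% and 12.3% of all genes tested. Lats1, a kinase that restrains YAP, averaged 760 ± 93.7 scaled reads in SPOP_CKI and 499 ± 77.3 in Cre_control (log2 difference 0.61, SE 0.15, limma adjusted p = 0.0161). Tead2, a DNA-binding partner of YAP, averaged 90.4 ± 13.2 in SPOP_CKI and 163 ± 22.5 in Cre_control (log2 difference -0.85, SE 0.20). Both calls were lost with GC centring. Srf, whose protein binds the CArG box, averaged 1579 ± 664 in SPOP_CKI and 1511 ± 157 in Cre_control (adjusted p = 0.862). Yap1 averaged 2150 ± 154 in SPOP_CKI and 1679 ± 100 in Cre_control. Its groups did not overlap, but it did not pass (limma adjusted p = 0.0541).

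The list of SRF and YAP targets held 18 tested genes known from other work to respond to stretch, serum response factor (SRF) or YAP. Of these, 6 were called higher and 1 lower, against 10.0% and 12.3% of all genes tested. Their median log2 difference was 0.33. The natriuretic peptide gene Nppa had 5427, 18587, 2753, 10206 and 3684 scaled reads in SPOP_CKI hearts, against 1246, 721, 218, 1377 and 542 in Cre_control hearts. Hearts 2 and 4 of SPOP_CKI were the highest, as for Ankrd1. Nppb, the other natriuretic peptide gene of the list, was 4.25-fold higher and Acta2, which encodes smooth muscle actin, 5.96-fold higher. The cytoplasmic actin genes Actb and Actg1 were 2.53-fold and 2.59-fold higher, and Tpm4, a tropomyosin gene, 2.07-fold higher, a call lost without SPOP_CKI 2 or 4, without Cre_control 1, 3, 4 or 5, without the 3 libraries with Xist reads, without SPOP_CKI 2 and SPOP_CKI 3 together, and with GC centring. Amotl2, a YAP target that encodes an angiomotin, was 2.68-fold lower. Ccn1 and Ccn2, both widely used as readouts of YAP, did not pass (adjusted p = 0.477 and 0.664).

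**Figure D5:**
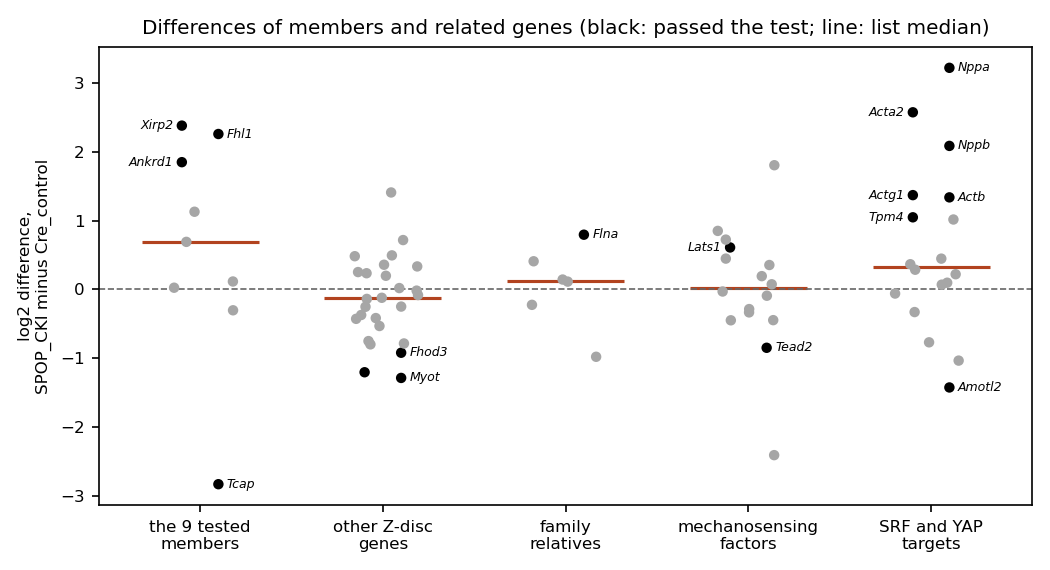
Log2 difference, SPOP_CKI minus Cre_control, of the 9 tested genes and of 4 lists of related genes; each point is a gene, black where it passed the test (all but 1 of these named), and lines are list medians. The medians are 0.69 for the 9 genes, -0.13 for other Z-disc genes, 0.13 for family relatives, 0.02 for mechanosensing factors and 0.33 for SRF and YAP targets.

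Markers of cell types moved as well. Summed over 12 ventricular cardiomyocyte markers, 417965 to 807945 scaled reads were counted in SPOP_CKI, with a median of 567860, and at least 820987, with a median of 908305, in Cre_control. Of these markers 1 was called higher (Actc1) and 4 lower, among them Myh6, at -1.59 on the log2 scale, Tnni3 and Atp2a2. Tcap moved in the direction of most of them, and Ankrd1, Fhl1 and Xirp2 in the other. The sum of 8 fibroblast markers was 34686, 77893, 55730, 122383 and 29586 in SPOP_CKI hearts and 29095 to 32196 in Cre_control. SPOP_CKI 2 and 4 thus had the highest values of Ankrd1 and of the fibroblast sum, in another order, while SPOP_CKI 5 lay within the control range of that sum. In SPOP_CKI 4 the largest parts of the fibroblast sum were Col3a1 (41279 scaled reads), Dcn (29432) and Postn (27145). Of the 8 fibroblast markers, Postn and Lum were called higher and Dpep1 lower, and 5 did not pass. Among those 5, Tcf21 averaged 221 ± 83.7 in SPOP_CKI and 218 ± 29.1 in Cre_control. The smooth muscle sum over 7 markers was 8970 to 17956 in SPOP_CKI and 3967 to 5406 in Cre_control, and rested on Acta2, since Myh11 averaged 979 ± 338 in SPOP_CKI and 1092 ± 145 in Cre_control. Among these 7 markers Acta2 was called higher and Lmod1 lower. The 8 macrophage markers summed to 4405 to 14610 in SPOP_CKI and 4190 to 7569 in Cre_control, and the 8 endothelial markers to 15954 to 22235 in SPOP_CKI and 25659 to 29478 in Cre_control. Of the 8 macrophage markers 2 were called higher (Adgre1 and Mrc1) and 1 lower (Cd163). Of the 8 endothelial markers 0 were called higher and 5 lower, among them Cldn5, Egfl7 and Tie1. Over all genes tested 10.0% were called higher and 12.3% lower. Of 9 atrial markers 5 were tested, of which Nppa was called higher and Sbk2 and Stard10 lower, and their sum was 3298 to 19291 in SPOP_CKI and 1010 to 5822 in Cre_control. That sum rested on Nppa: without it the sum was 546 to 1418 in SPOP_CKI and 679 to 4576 in Cre_control, where Cre_control 1 stood apart, with 1464 scaled reads of Myl4 against 12.9 to 134 in the other controls. Skeletal muscle markers, of which 8 of 12 were analysed here, summed to 88.9 to 232 in SPOP_CKI and 142 to 280 in Cre_control. Of the 4 that were tested, Tnnt1 was called lower and 0 higher, and Tnni1 averaged 39.8 ± 35.5 in SPOP_CKI and 12.9 ± 9.64 in Cre_control (adjusted p = 0.166). The part of these shifts in the differences of the 10 genes was not tested.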

How the data were processed

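Poly(A) RNA from mouse hearts was sequenced in 10 libraries, which were grouped by the titles and genotypes in the labels. The submitters' processing notes name featureCounts 1.5.0-p3, DESeq2 1.20.0 and the mouse build mm10. No source used here gives the aligner, the annotation release or the strand setting. The authors deposited a scaled read signal per library, with a log2 fold change and a p-value per gene. Dividing each column by the value of 1 read gave whole reads for 100% of values (tolerance 0.001). Gene identifiers were matched to GENCODE M21 for 99.9% of genes.

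The test was limma 3.58.1 (R 4.3.3, intensity trend and robust variances, two-sided, Benjamini-Hochberg at 0.05) on log2(value + 1), over 14212 genes with at least 10 scaled reads in at least 5 libraries. Folds and log2 differences are on that scale, which understates changes of low genes. Scripts were tested on simulated data. Libraries of a group all differed by more than sampling noise, the closest pair with a chi-square of 13.8 per degree of freedom. Alternatives were pseudocounts of 0.5 and 5, no filter or a mean of at least 50, TMM, quantile normalization, array weights, GC centring, edgeR 4.0.16 and DESeq2 1.42.0 on recovered reads, a replicate block, and each library left out. Leaving out the 3 libraries with Xist reads, or SPOP_CKI 2 and SPOP_CKI 3 together, was chosen after seeing the data.

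The members, lists and alternatives were chosen with earlier results of these data known. Text names all 10 members and, from each list, called genes with the largest differences (up to 3 in each direction), or, where fewer than 2 passed, the 2 of lowest p. The genes nearest in profile to Ankrd1 and Tcap were the 3 with the smallest distance among protein-coding genes with a mean of at least 100. Actn2, Ttn, Srf, Yap1, Actb, Actg1, Tpm4, Ccn1, Ccn2, Myh11, Myl4, Col3a1, Dcn and Tcf21 were added after their values were seen. One gene that the rule takes is counted in its list but is not reported here by name.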

Additional observations from a re-analysis of the deposited data

Results flagged for a closer look

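Within the 5 SPOP_CKI libraries, SPOP_CKI 2 stood far from the others for 2 of the 10 genes. Ankrd2 had 81.0 scaled reads there, against 0 to 2.61 in the other 4 SPOP_CKI libraries. Xirp2 had 61413 scaled reads there, against 5921 to 20217 in the other 4. In all 20 sets of 5 libraries were examined, on scaled reads and not on log2 values. A library was marked where its gap to the next exceeded 0.71 of the range. Chance alone marks about 1 in 20 if values follow a normal distribution, which was not tested.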

How the results depend on the processing

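Under all 23 alternatives Ankrd1, Fhl1, Xirp2 and Tcap kept their direction and their call. Their log2 differences ranged from 1.59 to 2.27 (adjusted p 7.55e-06 to 0.0277), from 1.98 to 2.46 (7.3e-10 to 0.00762), from 1.95 to 3.22 (3.07e-07 to 0.0254) and from -3.07 to -1.98 (1.04e-13 to 0.00255). Genes without a call changed sign for Xirp1 without SPOP_CKI 2 (-0.37), without SPOP_CKI 5 (-0.077) and without Cre_control 3 (-0.070), with a range of -0.37 to 0.54 over single libraries left out and 0.81 without the 3 libraries with Xist reads, for Fhl2 with quantile normalization (0.0029), and for Csrp3 without SPOP_CKI 2 (-0.023, with a range of -0.023 to 0.28 over the libraries left out) and without SPOP_CKI 2 and SPOP_CKI 3 (-0.11). Flnc gained a call in 6 alternatives (adjusted p over all of them 0.0161 to 0.309), Ankrd23 in 2 (0.00403 to 0.691) and Fhl2 in 2 (0.0382 to 0.996). With array weights, which gave SPOP_CKI 3 a weight of 0.086, 2429 genes were called higher and 2891 lower, with 5 and 2 of the members, 2 and 6 of the other Z-disc genes, 3 and 2 of the mechanosensing factors, and 2 of the SRF and YAP targets lower. Without the 3 libraries with Xist reads, 2 members and 2 mechanosensing factors were called lower, and 1 other Z-disc gene and 3 factors higher. Other Z-disc genes called higher numbered 2 with quantile normalization, DESeq2 or both SPOP_CKI 2 and SPOP_CKI 3 left out, and 1 with GC centring or edgeR. Mechanosensing factors called higher numbered 2 with a mean of at least 50, TMM or edgeR, 3 with quantile normalization or both libraries left out, and 5 with DESeq2. Those called lower numbered 2 with quantile normalization or both libraries left out and 0 with GC centring. SRF and YAP targets called lower numbered 2 with both libraries left out. With each library left out in turn, 891 to 1930 genes were called higher and 1034 to 2451 lower. The same gave 3 to 5 members, 0 to 2 other Z-disc genes, 0 to 1 relatives and 1 to 3 mechanosensing factors higher, and 1 to 2 factors lower. The Xirp2 share ranged from 65.4 to 68.4% in SPOP_CKI and from 27.3 to 31.0% in Cre_control. The causes were not tested. Same-numbered libraries were only weakly alike (correlations of deviations 0.026 to 0.16, and 2 of 5 numbers best with their own), which does not exclude a pairing. A replicate block gave 1310 genes higher and 1636 lower with the same 3 and 1 members called. With 5 libraries per group and this spread among SPOP_CKI hearts, the intervals of Flnc, Ankrd23 and Xirp1 include differences larger than 1 on the log2 scale.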

Other observations

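Among the SPOP_CKI hearts, Spop was highest in heart 3, at 40631 scaled reads, and lowest in heart 2, at 25308, with 36028, 28690 and 28830 in hearts 1, 4 and 5. Ankrd1, Ankrd23, Xirp2, Flnc and Xirp1 ran the other way at both ends, highest in heart 2 and lowest in heart 3. Fhl1 and Csrp3 were also highest in heart 2, but lowest in hearts 5 and 4. Between the ends the order did not follow: in heart 5, with 28830 scaled reads of Spop, Ankrd1 stood at 46731, near its 45466 in heart 3. Fhl2 had the same ends as Spop. Over all genes tested, heart 2 was the highest of its group for 22.6% and heart 3 the lowest for 41.8%. The share of all genes with both of these ends was not computed. Tcap was highest in heart 1 and lowest in heart 3. With 5 hearts, and with heart 3 also the library with the fewest genes detected, no correlation was computed.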
